A study of Mus musculus with 8 samples.

Results

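The A-kinase anchoring proteins (AKAPs) are 10 genes of the mouse, Akap1, Akap5, Akap6, Akap7, Akap8, Akap9, Akap10, Akap11, Akap12 and Akap13, chosen by symbol and not by any measured value. All 10 were found among the 77981 genes of the deposited expression table. An anchoring protein binds the regulatory subunits of protein kinase A (PKA), the kinase that cyclic AMP switches on, and holds the kinase at one place in the cell, often with phosphatases, phosphodiesterases and other kinases. In the collecting duct, vasopressin raises cyclic AMP, and PKA held near vesicles of the water channel aquaporin-2 takes part in moving that channel to the apical membrane. Akap7 and Akap11 are the members best known for a link with aquaporin-2.

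RNA from mouse kidney, labelled as inner medullary collecting duct (IMCD), was sequenced in 8 libraries, all from tamoxifen treatment. Of these, 4 came from AVP-flox mice, whose vasopressin gene Avp has a loxP site on either side, and 4 from AVP-flox;Cre mice, which also have Cre recombinase; both groups therefore carry the floxed allele and the drug, and no group carries Cre without it. The promoter that drives Cre, the tamoxifen dose, the age and sex of the mice and whether replicates are separate animals are not given in the labels, so p-values measure the spread between these libraries, which may be technical. Values are TPM, an abundance per transcript length scaled to the same total in each library, so levels of different genes can be set side by side, while the read depth behind them is unknown.

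The marker genes of the labelled segment were abundant. The summed level of 12 collecting duct markers was 21472 to 25301 TPM in AVP-flox and 13531 to 15731 TPM in AVP-flox;Cre. Most of the AVP-flox sum was Aqp2, at 15995 ± 1467 TPM there and 6304 ± 754 TPM in AVP-flox;Cre. Single markers went both ways. With Cre, 5 of the 12 were higher and 4 lower at a limma adjusted p under 0.05, beside 13.1% and 14.2% of all tested genes. Other cell types were present too: 8 endothelial markers summed to 2493 to 2573 TPM in AVP-flox and 2084 to 2175 TPM in AVP-flox;Cre, and 10 markers of fibroblasts, pericytes and smooth muscle to 137 to 189 TPM and 282 to 356 TPM. At the same threshold 3 of the 8 endothelial markers were higher and 2 lower with Cre. Of 8 tested markers of fibroblasts, pericytes and smooth muscle, 4 were higher and 0 lower. Of 7 tested intercalated markers 4 were higher and 0 lower, and of 3 thick limb markers 1 was higher and 0 lower. Markers of intercalated cells summed to 229 to 352 TPM for AVP-flox and 347 to 461 TPM for AVP-flox;Cre. Those of the thick limb were at 2116, 339, 1759 and 1825 TPM in AVP-flox 1 to 4 and 530 to 773 TPM with Cre, so that AVP-flox 2 was unlike its group. Of the marker genes of these 5 lists, 0 were at 0 in all libraries. Avp, which the hypothalamus makes, was at 0 to 0.24 TPM and 0 to 0.27 TPM and gives no check of its deletion in kidney. The fewest genes above 0 TPM were in AVP-flox;Cre 2 (33576, next lowest 50951), and the most genes at or over 1 TPM in AVP-flox;Cre 4 (23412, next highest 20765), so that both libraries stood apart.

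Of the 10 anchoring protein genes, 8 had a mean above 5 TPM while Akap5 was near 1 TPM and Akap6 below it. In AVP-flox the highest was Akap8, which encodes a nuclear anchoring protein of chromatin, at 57.8 ± 6.1 TPM (SD, n = 4), followed by Akap9, of the centrosome and Golgi, at 53.9 ± 6.0 TPM. The ranges of these 2 genes overlapped. Akap12, the plasma membrane scaffold also called gravin, followed at 37.9 ± 5.8 TPM, apart from both its neighbours in the order. Akap7 (24.5 ± 1.0 TPM) and Akap10 (23.2 ± 1.2 TPM) overlapped, as did Akap13 (17.9 ± 1.3 TPM) and Akap1 (17.4 ± 1.2 TPM). Akap11 stood below these at 8.65 ± 1.40 TPM. Akap5 (0.978 ± 0.105 TPM) and Akap6 (0.128 ± 0.048 TPM) were lowest, and each range was apart from the next.

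The same 3 genes led in AVP-flox;Cre, where Akap8 was at 67.3 ± 4.3 TPM, Akap9 at 60.9 ± 5.5 TPM and Akap12 at 36.9 ± 5.2 TPM. Akap11, Akap5 and Akap6 were again the lowest 3, in that order. Akap7 moved from the 4th to the 7th place, and its range there, 6.81 to 29.7 TPM, spanned those of Akap10, Akap13, Akap1 and Akap11. The summed level of the 10 genes was 242 ± 7 TPM in AVP-flox and 253 ± 17 TPM in AVP-flox;Cre. The 4 regulatory subunit genes of PKA, the proteins to which anchoring proteins bind, summed to 393 to 442 TPM and 406 to 430 TPM.

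**Figure D1:**
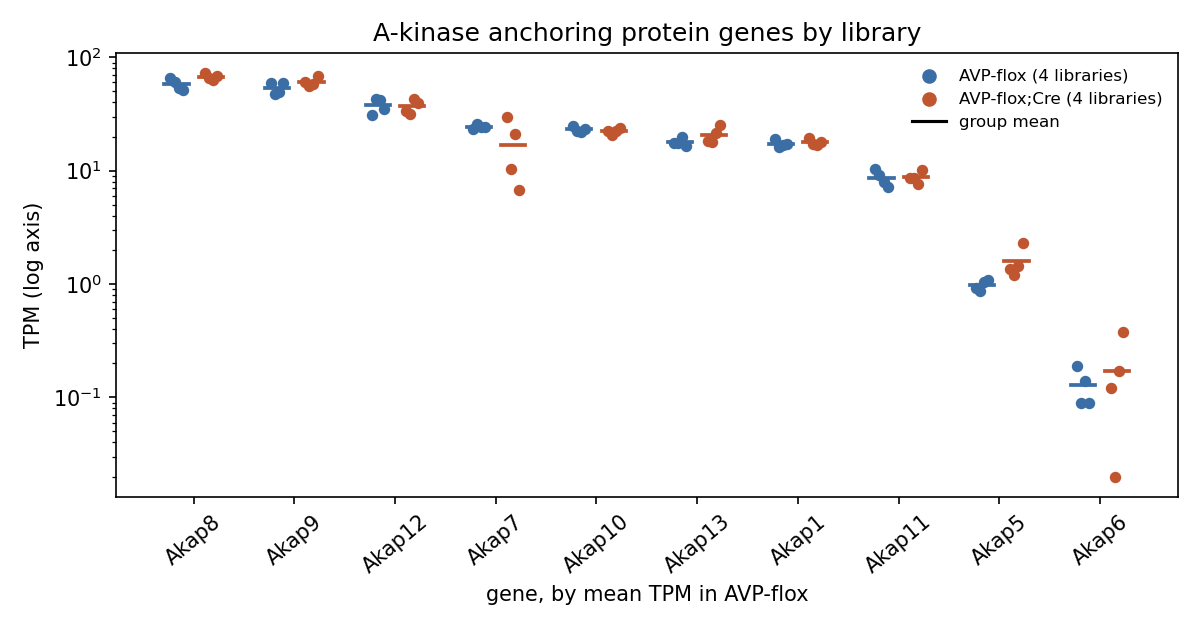
TPM (log axis) of each A-kinase anchoring protein gene in the 4 AVP-flox and 4 AVP-flox;Cre libraries, with points for libraries and a line for the group mean. Akap8 and Akap9 lie highest and Akap6 lowest in both groups, and among the AVP-flox;Cre libraries Akap7 spreads from 6.81 to 29.7 TPM and Akap6 from 0.02 to 0.38 TPM.

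Between the groups, 0 of the 9 anchoring protein genes that could be tested passed the threshold of an adjusted p of 0.05 in limma, where 27.3% of all 19043 tested genes did. At an unadjusted p under 0.05 there was 1 member, Akap8, against 39.0% of all tested genes. Akap6 was under the filter of a mean of 1 TPM and was not tested. The groups did not overlap for 1 member, Akap5, where 29.5% of all tested genes did not overlap, 14.7% with AVP-flox;Cre higher and 14.9% with it lower. The median log2 fold change (AVP-flox;Cre minus AVP-flox, on the log2(TPM + 1) scale) was 0.04 for the 9 members and -0.01 for all genes, with 6 members above 0 and 3 below. A p above the threshold does not show equal levels, so the 95% intervals are given: for 7 of the 9 genes the interval lay within -0.5 to 0.5, and those of Akap5 and Akap7 were wider.

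**Figure D2:**
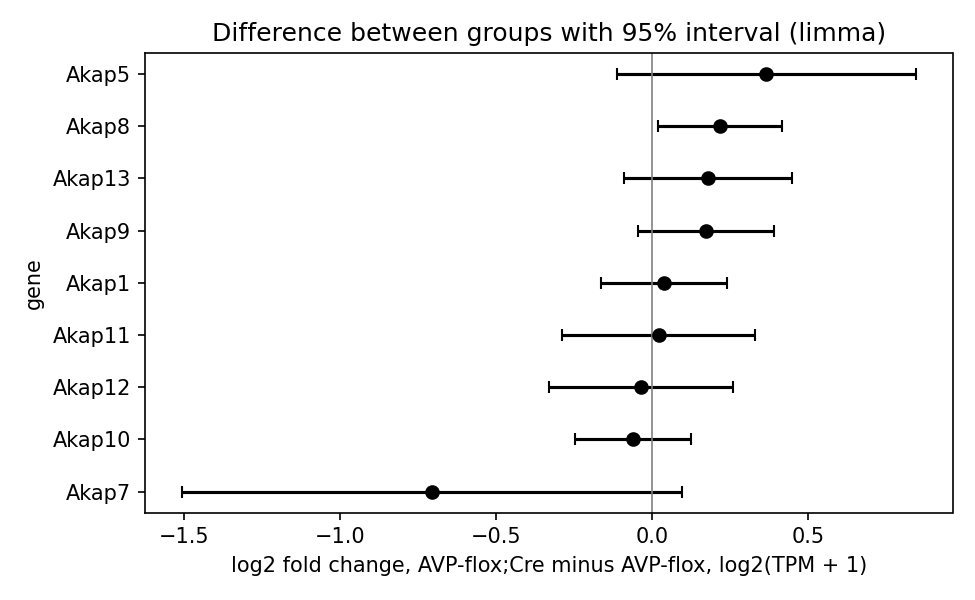
Log2 fold change (AVP-flox;Cre minus AVP-flox, log2(TPM + 1)) of the 9 tested anchoring protein genes, with points for the limma estimate and bars for its 95% interval. The interval of Akap7 is the widest, from -1.51 to 0.10, and that of Akap8, from 0.02 to 0.42, is the one that leaves out 0 before adjustment over all genes.

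Akap11 (ENSMUSG00000022016) encodes a large cytoplasmic anchoring protein that also binds glycogen synthase kinase 3 and protein phosphatase 1 and has been tied to aquaporin-2 in mouse collecting duct. It was at 10.4, 9.09, 7.93 and 7.19 TPM in AVP-flox 1 to 4 and at 8.66, 8.63, 7.70 and 10.1 TPM in AVP-flox;Cre 1 to 4. The groups overlapped over nearly all of their ranges. Its log2 fold change was 0.02 (SE 0.14, 95% interval -0.29 to 0.33, limma adjusted p = 0.924). In the same libraries the channel gene Aqp2 was at 15995 ± 1467 and 6304 ± 754 TPM (log2 fold change -1.35, limma adjusted p = 3.38e-05), a difference that lies outside the Akap11 interval.

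Promoters of the anchoring protein genes were searched for the half-site of the cyclic AMP response element, the letters TGACG on either strand (CGTCA on the other), and for the full element TGACGTCA, in which both overlap. RefSeq windows of 250 bases before to 50 after a start, on GRCm38.p6, were matched by symbol for 9 of the 10 genes (13 windows). Of these 9, only Akap11 held the half-site, in 1 of its 2 windows, while 20.8% of all 32851 windows hold it. No member window held the full element, against 1.79% of all windows. Shown for that reason is the Akap11 window, chr14:78536811-78537110, minus strand, with half-sites in capitals. Its 3 half-sites include a pair in opposite orientation. A match is a string of letters and says nothing of binding.
Akap11: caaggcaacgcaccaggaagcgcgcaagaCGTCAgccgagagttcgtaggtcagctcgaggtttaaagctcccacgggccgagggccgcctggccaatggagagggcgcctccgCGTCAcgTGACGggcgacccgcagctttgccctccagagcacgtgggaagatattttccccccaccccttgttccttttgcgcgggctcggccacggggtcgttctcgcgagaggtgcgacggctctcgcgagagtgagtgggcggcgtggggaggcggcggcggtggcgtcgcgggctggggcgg

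At other membranes, Akap12 (ENSMUSG00000038587), which gathers PKA and protein kinase C, ranged from 31.0 to 43.2 TPM for AVP-flox and from 31.6 to 42.8 TPM for AVP-flox;Cre. The 2 ranges almost coincide, with a log2 fold change of -0.03 (95% interval -0.33 to 0.26, limma adjusted p = 0.883). Akap12 is known from fibroblasts and endothelium as well as epithelia. The summed markers of fibroblasts, pericytes and smooth muscle did not overlap between the groups and were higher with Cre, and their part in the Akap12 level was not tested. In bulk RNA, fewer cells of a type and less RNA per cell cannot be told apart.

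Akap5 (ENSMUSG00000021057), known as AKAP150 in the mouse, holds PKA, calcineurin and protein kinase C at the plasma membrane. It was at 0.92, 0.86, 1.05 and 1.08 TPM in AVP-flox 1 to 4 and at 1.37, 1.21, 1.45 and 2.29 TPM in AVP-flox;Cre 1 to 4. Every AVP-flox;Cre library lay above every AVP-flox library, with AVP-flox;Cre 4 highest. The ratio of mean TPM was 1.62, and the exact two-sided permutation test of the means gave p = 0.0286, which no split of 8 libraries into 4 and 4 can go below. The AVP-flox mean of 0.978 TPM was under the filter of 1 TPM, which Akap5 passed only through AVP-flox;Cre. The separation of the groups and its p are therefore a description. At so low a level the added 1 TPM shrinks the log2 fold change, which was 0.37 (SE 0.21). It did not pass over all genes (limma adjusted p = 0.238, 95% interval -0.11 to 0.85). Of the 10 members, 4 had their highest value in AVP-flox;Cre 4, namely Akap5, Akap6, Akap9 and Akap13. That is also the library with the most genes of at least 1 TPM. The share of all tested genes that were highest there was not counted.

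Akap13 (ENSMUSG00000066406) is both an anchoring protein and an exchange factor that activates the GTPase RhoA. It was at 17.6, 17.6, 19.8 and 16.6 TPM in AVP-flox and at 18.1, 17.9, 21.3 and 25.1 TPM in AVP-flox;Cre. The groups overlapped, with AVP-flox;Cre 3 and 4 above all AVP-flox libraries (log2 fold change 0.18, 95% interval -0.09 to 0.45, limma adjusted p = 0.305). Rhoa, the gene of that GTPase, fell from 301 ± 29 to 210 ± 12 TPM (log2 fold change -0.52, limma adjusted p = 0.00149).

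The anchoring proteins of organelles and of the nuclear envelope come next. Akap1 (ENSMUSG00000018428), which holds PKA at the outer mitochondrial membrane, was at 16.2 to 19.0 TPM and 16.9 to 19.3 TPM (log2 fold change 0.04, 95% interval -0.16 to 0.24). Akap10 (ENSMUSG00000047804), which binds both types of regulatory subunit, was at 22.1 to 24.8 TPM and 20.6 to 23.8 TPM (log2 fold change -0.06, 95% interval -0.25 to 0.13). Their coefficients of variation within groups, 5.15% to 6.83%, were under the medians of 10.9% (AVP-flox) and 11.1% (AVP-flox;Cre) over the 11955 genes that average 5 TPM or more. Akap9 (ENSMUSG00000040407) was at 59.3, 47.8, 49.8 and 59.0 TPM in AVP-flox and at 60.2, 56.3, 58.2 and 68.8 TPM in AVP-flox;Cre. Here too the groups overlapped (log2 fold change 0.17, 95% interval -0.05 to 0.39, limma adjusted p = 0.223). Akap6 (ENSMUSG00000061603), an anchoring protein of the nuclear envelope best known from muscle cells and neurons, was at 0.09 to 0.19 TPM and 0.02 to 0.38 TPM, and its exact two-sided permutation test gave p = 0.686.

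Akap7 (ENSMUSG00000039166) had the largest coefficient of variation of the 9 tested members in AVP-flox;Cre; only Akap6, below the filter, had a larger one (88.0%). Its gene gives several isoforms, of which a long one was found on aquaporin-2 vesicles of rat inner medulla and a short one sits at the plasma membrane. The table gives gene totals, in which isoforms cannot be separated. Akap7 was at 23.5, 25.8, 24.4 and 24.4 TPM in AVP-flox 1 to 4, and at 29.7, 10.3, 21.1 and 6.81 TPM in AVP-flox;Cre 1 to 4. The AVP-flox libraries were close together, AVP-flox;Cre 1 lay above all of them, and AVP-flox;Cre 2, 3 and 4 lay below all of them. The coefficient of variation was 3.92% for the AVP-flox libraries and 61.5% for those with Cre. Of those 11955 genes, 1.84% had one as large among the libraries with Cre.

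The mean of Akap7 was 1.44-fold lower in AVP-flox;Cre, with a log2 fold change of -0.70 (SE 0.36, 95% interval -1.51 to 0.10, limma adjusted p = 0.177). The exact two-sided permutation test gave p = 0.314. The size and the call rest on single libraries. Without AVP-flox;Cre 1 the log2 fold change was -1.03 and passed (limma adjusted p = 0.0305), and without AVP-flox;Cre 4 it was -0.37. With AVP-flox 2 left out together with numbers 2 and 4 of AVP-flox;Cre it was 0.05 (limma adjusted p = 0.848). The share of mitochondrially encoded transcripts was 2.35% in AVP-flox 2 and 3.75% to 4.42% in the other AVP-flox libraries. In AVP-flox;Cre it was 2.40% to 2.85%. The adjusted p lay between 0.0305 and 0.848 over 22 alternatives.

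The libraries lowest in Akap7, AVP-flox;Cre 4 and 2, are those that stood apart in genes detected; AVP-flox;Cre 3, also below every AVP-flox library, did not. On the second principal component of all tested genes AVP-flox;Cre 2 was at 57.6 and AVP-flox;Cre 4 at -42.6, the opposite ends, while the other libraries lay between -17.0 and 11.96. The order of the AVP-flox;Cre libraries in Akap7, 1 above 3 above 2 above 4, was found in 521 of the 11955 genes (4.36%), and in 189 (19.2%) of the 986 genes whose coefficient of variation in AVP-flox;Cre was at least 30%. The order was taken from Akap7 itself and the 986 genes by their spread in the same libraries, so these shares are a description. The first 300 nt of the longest coding transcript (GENCODE M21) held a median of 76.3% G and C over 179 of those 189 genes, against 61.3% over 10761 of the 11955 genes and 62.3% in Akap7. Those of the 986 genes without that order were not compared. Each library was also corrected for its trend with the G and C content of the first 300 nt of the longest annotated transcript. In Akap7 that content is 45.7%, so the correction did not use the 62.3% of its coding transcript. The corrected log2 fold change of Akap7 was -0.77 (limma adjusted p = 0.154), slightly larger in size than without the correction. A part of G and C content in the spread of Akap7 was not tested.

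Several partners of the anchoring proteins had that same order of libraries. Those described here were picked after their values were seen, and the listed genes with that order were not counted. Prkaca, the alpha catalytic subunit of PKA, ranged from 60.6 to 73.9 TPM for AVP-flox and measured 70.5, 15.3, 35.1 and 8.87 TPM in AVP-flox;Cre 1 to 4 (limma adjusted p = 0.0548). Prkar2a, a type II regulatory subunit, ranged from 22.8 to 25.7 TPM for AVP-flox and measured 26.5, 14.4, 18.2 and 12.7 TPM in AVP-flox;Cre 1 to 4 (limma adjusted p = 0.0817). In both genes AVP-flox;Cre 1 was within or just above the AVP-flox range, and numbers 2 to 4 were below it. Ppp2ca, a phosphatase catalytic subunit, Gsk3a, a glycogen synthase kinase 3 gene, and Prkd1, a kinase that Akap13 binds, had the same order. The first 300 nt of these 5 partners held 73.7% to 80.3% G and C. Other listed genes with that order, among them Prkar2b, Aqp2, Adcy6, Src and Akap17a, were not compared in G and C content.

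**Figure D3:**
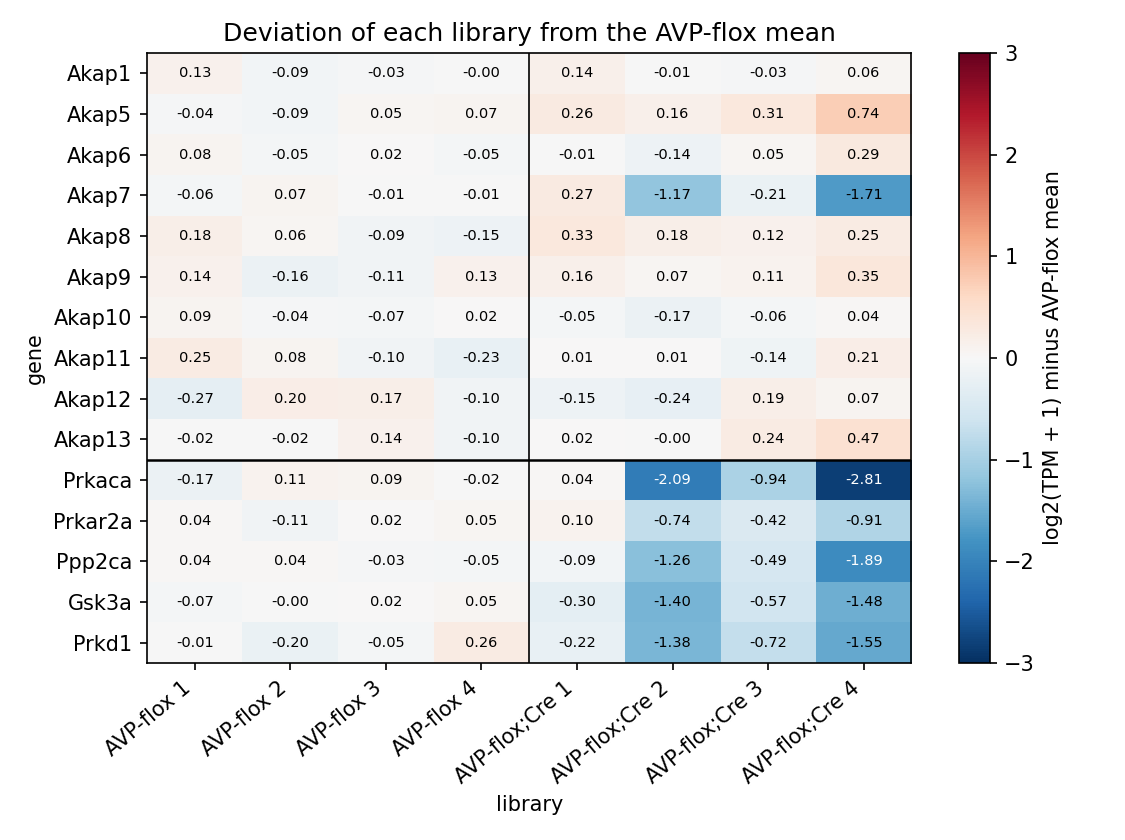
Difference of log2(TPM + 1) in each library from the AVP-flox mean for the 10 anchoring protein genes (above the line) and 5 partner genes (below it). In AVP-flox;Cre 2 and 4 Akap7 reaches -1.17 and -1.71 and Prkaca -2.09 and -2.81, and no other anchoring protein gene goes below -0.27 in any library.

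The Akap7 promoter at the upstream one of its 2 RefSeq starts, chr10:25297030-25297329 on GRCm38.p6, minus strand, is 68.7% G and C, against a median of 52.7% over all windows. The window at its other start is 57.7% G and C. Such a share is not particular to Akap7. Windows of the other members ran from 35.7% (an Akap11 window) to 70.7% (Akap5 and an Akap1 window), with Akap10, of low spread, at 70.3%. The sequence at the upstream start is shown because of the wide spread of this gene. It holds no half-site, so it has no capitals.
Akap7: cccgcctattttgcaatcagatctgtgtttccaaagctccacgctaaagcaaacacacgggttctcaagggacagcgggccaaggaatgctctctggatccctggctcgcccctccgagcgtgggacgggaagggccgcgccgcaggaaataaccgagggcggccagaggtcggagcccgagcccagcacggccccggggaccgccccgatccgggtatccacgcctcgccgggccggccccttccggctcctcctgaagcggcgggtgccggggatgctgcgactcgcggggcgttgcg

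Akap8 (ENSMUSG00000024045) was at 65.4, 60.0, 53.9 and 52.0 TPM in AVP-flox 1 to 4 and at 72.5, 65.2, 62.7 and 68.8 TPM in AVP-flox;Cre 1 to 4. The groups overlapped through AVP-flox 1, which lay above 2 of the AVP-flox;Cre libraries. The log2 fold change was 0.22 (SE 0.09, 95% interval 0.02 to 0.42) and did not pass (unadjusted p = 0.0344, limma adjusted p = 0.0977). Without AVP-flox 1 it was 0.28 and passed (limma adjusted p = 0.0438; range over 22 alternatives 0.0438 to 0.320).

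Its neighbour Akap8l, a nuclear relative with no protein-coding gene between them on mouse chromosome 17 in RefSeq, lay at a higher level and the other way round. Akap8l was at 176, 199, 177 and 155 TPM in AVP-flox and at 162, 154, 149 and 156 TPM in AVP-flox;Cre (log2 fold change -0.18, 95% interval -0.36 to -0.00, limma adjusted p = 0.123). The pair was set side by side after these values were seen. Their ratio is therefore a description, with no test. The ratio of Akap8 to Akap8l was 0.372, 0.302, 0.305 and 0.336 in AVP-flox and 0.448, 0.424, 0.421 and 0.440 in AVP-flox;Cre. The groups did not overlap, with the higher ratios in AVP-flox;Cre (0.433 ± 0.013 against 0.329 ± 0.033, SD, n = 4). Of single tested genes, 29.5% did not overlap, and the share for ratios of other gene pairs was not counted. A ratio within a library does not depend on scaling. On the log2 scale the ratio differed by 0.40, and by 0.36 to 0.46 when single libraries, or the same 3 together, were left out. Of the 50-base stretches of Akap8 transcripts in GENCODE M21, 0.473% also occurred in other genes, so few reads of this length could be shared.

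**Figure D4:**
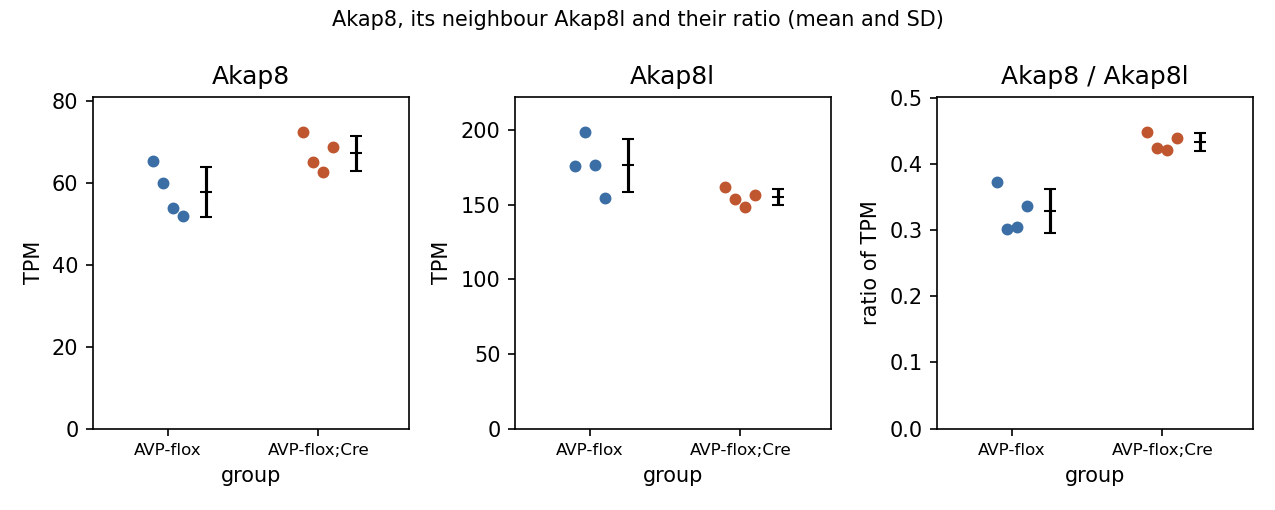
TPM of Akap8 and of its neighbour Akap8l, and their ratio, in each library, with points for libraries and bars for the mean and SD of 4. Both genes overlap between the groups, while the ratio is 0.302 to 0.372 in AVP-flox and 0.421 to 0.448 in AVP-flox;Cre.

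The promoters of this pair are shown because the ratio of the 2 genes did not overlap between groups. Both are on the minus strand of GRCm38.p6, Akap8 at chr17:32321189-32321488 and Akap8l at chr17:32350528-32350827. The Akap8l window holds 1 half-site, in capitals, and the Akap8 window none.
Akap8: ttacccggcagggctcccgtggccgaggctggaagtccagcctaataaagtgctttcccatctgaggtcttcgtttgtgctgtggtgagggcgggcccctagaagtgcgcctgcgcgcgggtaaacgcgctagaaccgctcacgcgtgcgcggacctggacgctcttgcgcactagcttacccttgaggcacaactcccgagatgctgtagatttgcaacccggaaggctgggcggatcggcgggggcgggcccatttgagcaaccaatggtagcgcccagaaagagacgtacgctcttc
Akap8l: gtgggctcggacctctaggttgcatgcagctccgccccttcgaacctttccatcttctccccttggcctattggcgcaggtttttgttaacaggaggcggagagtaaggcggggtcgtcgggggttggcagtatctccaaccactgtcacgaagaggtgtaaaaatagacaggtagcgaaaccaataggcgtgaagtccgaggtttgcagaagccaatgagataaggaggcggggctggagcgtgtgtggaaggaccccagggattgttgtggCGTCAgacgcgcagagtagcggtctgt

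Other proteins also anchor PKA. Of 17 tested genes of that kind 3 rose, 3 fell and 11 did not pass, beside 13.1% of all tested genes that rose and 14.2% that fell (median log2 fold change -0.18). Msn and Ezr, which encode moesin and ezrin, linkers between actin and the membrane, rose to 239 ± 21 TPM from 162 ± 8 TPM (limma adjusted p = 0.000646) and to 348 ± 30 TPM from 251 ± 13 TPM (limma adjusted p = 0.00174). Nbea, a neurobeachin of vesicle traffic, rose 1.53-fold (limma adjusted p = 0.0125). Map2, a microtubule protein, fell from 39.7 ± 2.7 to 19.0 ± 4.4 TPM (limma adjusted p = 0.000686). Rdx (radixin), another relative of ezrin, fell 1.17-fold (limma adjusted p = 0.0444). Akap17a fell from 1.75 ± 0.60 to 0.363 ± 0.486 TPM (limma adjusted p = 0.0295), and AVP-flox;Cre 1, at 1.09 TPM, lay within AVP-flox. Its mean over all libraries, 1.05 TPM, passed the filter of 1 TPM only through AVP-flox, so its place among the 3 that fell is a description. Pakap, the gene that includes the former Akap2, was at 55.7 ± 4.5 and 64.0 ± 9.6 TPM over its 3 identifiers (limma adjusted p = 0.243). Rdx, Akap17a and Pakap were picked after their values were seen. The fibroblast, pericyte and smooth muscle markers were higher in the same libraries as Msn and Ezr, and their part in these rises was not tested. With the 3 libraries named above left out together, 3 genes of this list passed.

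Among the 9 genes of PKA subunits and inhibitors, 3 rose, 1 fell and 5 did not pass (median log2 fold change 0.12), beside 13.1% of all tested genes that rose and 14.2% that fell. Prkar2b, the type II regulatory subunit beta, a main partner of most AKAPs, fell from 52.5 ± 6.4 to 25.8 ± 3.5 TPM (limma adjusted p = 0.000307). Pkia and Pkig, which encode inhibitors of the free catalytic subunit, rose from 13.0 ± 1.6 to 20.8 ± 1.9 TPM and from 123 ± 8 to 147 ± 9 TPM (limma adjusted p = 0.00283 and 0.0250), and Prkacb, the beta catalytic subunit, rose 1.29-fold (limma adjusted p = 0.0129). Prkar1a, the most abundant regulatory subunit, was at 318 ± 16 and 346 ± 17 TPM (limma adjusted p = 0.184). This list had 2 calls without a filter on low values and 1 with the 3 libraries left out.

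Of 26 tested genes of enzymes that anchoring proteins hold, 2 rose, 3 fell and 21 did not pass (median log2 fold change -0.06), where 27.3% of all tested genes passed. Prkcd, a protein kinase C gene, rose from 114 ± 10 to 171 ± 4 TPM (limma adjusted p = 0.000470), as did Ppp1cb, a catalytic subunit of protein phosphatase 1 (limma adjusted p = 0.0498). Beside Rhoa, those that fell were Gsk3a, from 23.3 ± 0.9 to 12.5 ± 5.4 TPM (limma adjusted p = 0.0179), and Prkd1, from 15.7 ± 2.2 to 8.09 ± 3.94 TPM (limma adjusted p = 0.0230). Both were lowest in AVP-flox;Cre 2 and 4. The 5 calls became 3 without AVP-flox 3, without AVP-flox;Cre 2 or with the 3 libraries left out, and 2 without a filter. The calcineurin genes Ppp3ca, Ppp3cb and Ppp3r1 stood at log2 fold changes of 0.02 to 0.08 and did not pass. Of 14 tested cargo and substrate genes of principal cells, 5 rose, 3 fell and 6 did not pass (median log2 fold change 0.22), against the same shares of 13.1% and 14.2% over all tested genes. Those that fell were the water channels Aqp2, Aqp3 and Aqp4. Scnn1b, a sodium channel subunit, was the riser with the smallest adjusted p (limma adjusted p = 8.10e-05), and its partner subunit Scnn1g rose from 25.6 ± 5.5 to 61.0 ± 8.9 TPM (limma adjusted p = 0.000527). Slc14a2, a urea transporter, rose 1.36-fold (limma adjusted p = 0.00438), and Itpr1 and Itpr2, genes of calcium release channels that PKA phosphorylates, rose 1.30-fold and 1.29-fold. Aqp3, Slc14a2, Itpr1, Itpr2, Ppp1cb and the calcineurin genes were also picked after their values were seen.

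Across the 8 libraries the anchoring protein genes did not follow one pattern. Pearson correlations of log2(TPM + 1) between pairs of the 9 tested members ran from -0.72 (Akap5 with Akap7) to 0.86 (Akap5 with Akap13), over points that share group and scaling.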

How the data were processed

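RNA of 8 mouse kidney libraries was turned into cDNA with SMART-Seq HT, tagmented with Nextera XT and read as pairs of 50 bp, per the labels' protocols. The cDNA input was 1 ng. The submitters' processing notes list STAR and RSEM; the sources used here give no version, genome build or annotation. The authors deposited TPM per Ensembl gene, 1 column for each library. The columns named WT and KO were matched to AVP-flox and AVP-flox;Cre by genotype and replicate number; WT thus stands for floxed mice without Cre. TPM keeps no read counts, so depth and counting intervals are unknown, and count tests were not run. The 78298 identifiers were summed by symbol to 77981 genes. Genes averaging 1 TPM or more (19043) were compared as log2(TPM + 1) with limma 3.58.1 in R 4.3.3, with a mean-variance trend, two-sided, and Benjamini-Hochberg adjustment over all of them. The test was tested on simulated data. Single values were compared with exact permutation tests (scipy 1.17.1).

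Sequences are RefSeq's on GRCm38.p6, and transcripts are from GENCODE M21, which may not be the authors' annotation. The anchoring protein genes, lists and tests were chosen with earlier results of these data known. Named genes are all members, in each list the changed genes of smallest adjusted p (up to 4), and partners a sentence needs. The 22 alternatives used the replicate number as a block, a pseudocount of 0.1 or 5, no filter or one at 5 TPM, 3 scalings, 3 limma settings, unsummed identifiers, a correction for GC content at the 5' end, 3 libraries left out together and each library left out. For the ratio of Akap8 to Akap8l, leaving out libraries was added after seeing the data.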

Additional observations from a re-analysis of the deposited data

How the results depend on the processing

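Of the 9 tested anchoring protein genes, 7 stayed on the same side of the threshold under each of the 22 alternatives (21 for Akap5). The number of them past it was 0 in the main analysis and under all alternatives but 2, and it was 0 to 1 when single libraries were left out. Leaving out single libraries gave -1.03 to -0.37 for Akap7, 0.17 to 0.28 for Akap8, -0.053 to 0.11 for Akap11 and -0.12 to 0.037 for Akap12; the signs of the last pair each turned under 5 alternatives. For Akap11 these 5 include the rescaling without mitochondrial and the 10 most abundant genes (-0.0041). With AVP-flox 2 left out together with numbers 2 and 4 of AVP-flox;Cre, Akap7 was at 0.054, Akap11 at -0.038 and Akap12 at 0.085, none past the threshold; the cause was not tested. With fewer samples there, 2560 genes passed over the whole table against 5204, with 1 of the PKA subunit list, 3 of the other anchoring proteins and 3 of the held enzymes. Without a filter on low values 67580 genes entered the adjustment and 3409 passed, with 2 of the PKA subunit list and 2 of the held enzymes. Leaving out single libraries gave 3 to 7 held enzymes and 4006 to 4767 genes in all. With the replicate number as a block 4431 genes and 0 anchoring protein genes passed; same-numbered libraries did not deviate together (correlations 0.0010 to 0.095), not every library correlated best with its own number, and the numbers were not taken as pairs. TPM gives no depth, so what depth limits for Akap5 and Akap6 is unknown.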
